A study of Mus musculus with 16 samples.

Results

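Fatty acid elongases and desaturases are the membrane enzymes that lengthen fatty acids and put unsaturated bonds into them. The 8 transcripts described here are those of the desaturases Fads1, Fads2, Fads3 and Scd2 and of the elongases Elovl1, Elovl2, Elovl3 and Elovl5. They were chosen by name, were all among the 15119 genes of the deposited counts table, and all passed the filter on low counts that left 14434 genes for testing. RNA was sequenced from livers of female mice that were either wild type (WT) or had lost Arglu1, a transcriptional coregulator, in the liver (LKO). All mice had been kept on chow to an age of 9 months and for 12 weeks then either stayed on chow or ate the high-fat diet TD. 88137 (HFD). The 4 groups, WT chow, LKO chow, WT HFD and LKO HFD, held 4 libraries each. The labels name neither the Cre driver nor the deleted exons of LKO, and do not say that each library came from its own mouse, so every error and p-value measures spread among libraries, which may be technical.

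Dietary and newly made fatty acids are remodelled at the endoplasmic reticulum. Elongases of the Elovl family carry out the first, rate-limiting step of a cycle that extends an acyl-CoA with carbons from malonyl-CoA, and the Fads and Scd enzymes draw electrons from cytochrome b5 to introduce the unsaturated bond. In liver, Fads2, Elovl5, Fads1 and Elovl2 act in turn to turn essential dietary fatty acids into long-chain polyunsaturated fatty acids such as arachidonic and docosahexaenoic acid. Elovl1 and Elovl3 extend mainly saturated and monounsaturated very-long-chain fatty acids, and Elovl1 products are used for sphingolipids. Fads3 desaturates the sphingoid base of ceramides, and Scd2 is a stearoyl-CoA desaturase that is prominent in mouse brain and in liver before weaning.

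The total estimated count ran from 19142612 to 25120565 per library, and levels are given as CPM, the count scaled to library size with TMM factors. Arglu1 checked the labels. Its level was 39.5 to 45.1 CPM in the 8 WT libraries and 12.8 to 16.7 CPM in the 8 LKO libraries, with log2 fold changes of -1.49 on chow (adjusted p = 8.03e-09, SE 0.0935) and -1.44 on HFD (adjusted p = 1.34e-08, SE 0.0930). LKO chow libraries 3 and 4 stood apart from LKO chow libraries 1 and 2 on the second principal component of all genes (38.1 and 34.7 against -10.7 and -11.1, 13.8% of the variance), so differences that use LKO chow were also fitted without either pair. Markers of hepatocytes were abundant throughout, but their sum moved with the groups. The 8 tested summed to 94599 to 126159 CPM in WT chow, 118425 to 128063 CPM in LKO chow, 69724 to 74749 CPM in WT HFD and 86516 to 101869 CPM in LKO HFD, so WT HFD lay below every other library. The part of this sum in the comparisons that use WT HFD was not tested. Every library is whole liver, in which fewer cells of a type and less RNA per cell cannot be told apart.

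The 4 enzymes of the polyunsaturated pathway were far more abundant than the rest. Per kilobase of annotated exon, Elovl5 stood highest in WT on chow at 283 ± 69.9 CPM per kb, followed by Fads2 at 230 ± 14.2, Elovl2 at 192 ± 34.2 and Fads1 at 172 ± 15.9 CPM per kb (SD, n = 4 each). The range of Elovl5 overlapped those of Fads2 and Elovl2, and that of Elovl2 overlapped those of Fads2 and Fads1, while Fads2 lay above Fads1 in every library. Elovl1 followed at 13.7 ± 0.943 CPM per kb, Scd2 at 6.53 ± 4.82, Fads3 at 5.77 ± 1.54 and Elovl3 at 0.619 ± 0.112 CPM per kb. The same 4 transcripts were the top 4 in every group, in differing order, and Fads2 had the highest mean in the other 3 groups. Below them, Fads3 was 7th of 8 in both WT groups and 5th in both LKO groups, where it averaged 43.1 ± 26.2 CPM per kb on chow and 39.7 ± 3.40 CPM per kb on HFD and lay above Elovl1 (19.3 ± 1.07 and 18.7 ± 1.80). In LKO chow the lowest Fads3 library, at 18.6 CPM per kb, lay at the lowest Elovl1 library, so these neighbours overlapped there and not on HFD.

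**Figure D1:**
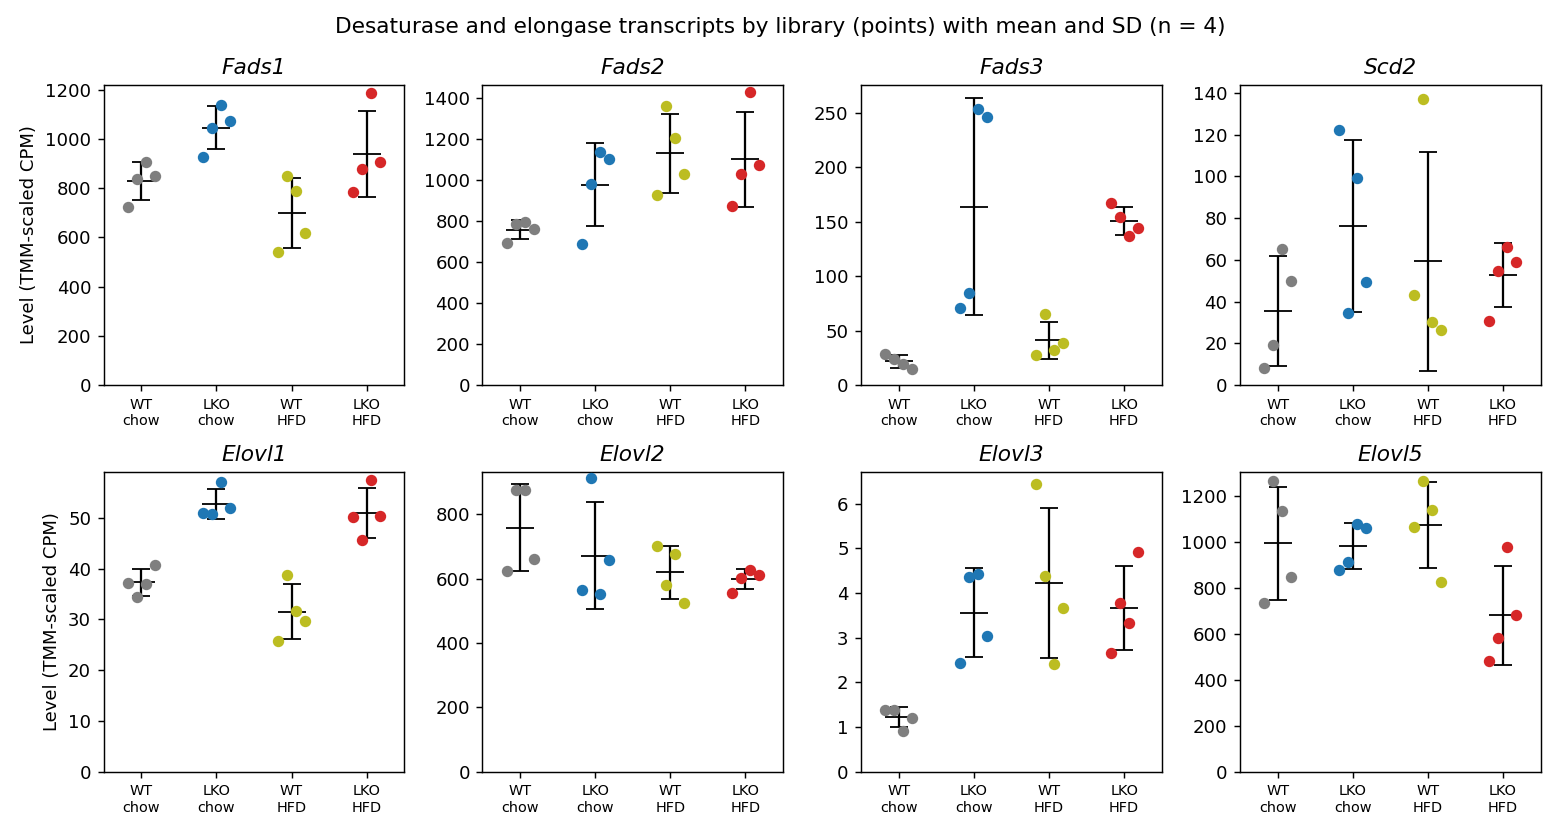
Level of each transcript (vertical axis, TMM-scaled CPM, from 0) in each of 16 libraries, as points by group, with the group mean and SD (n = 4). Fads3 and Elovl1 lie higher in every LKO library than in any WT library on the same diet, Elovl3 is lowest in WT chow, and Scd2 scatters widely in every group but LKO HFD.

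Loss of Arglu1 was accompanied by more Fads3, Elovl1 and Elovl3 transcript on chow, and by more Fads3 and Elovl1 but less Elovl5 transcript on HFD. On chow 3 of the 8 transcripts rose and none fell at a Benjamini-Hochberg adjusted p below 0.05 (edgeR quasi-likelihood test over all 14434 genes), where 24.7% of all genes tested were called (12.9% higher and 11.8% lower). On HFD 2 rose and 1 fell, where 17.9% of all genes were called (10.3% higher and 7.57% lower). The Elovl5 call was lost in 7 of 27 alternative fits, and the calls of Fads3 and Elovl1 in none. The median log2 fold change of the 8 transcripts was 0.43 on chow and -0.05 on HFD, beside 0.02 and -0.01 over all genes tested. A share of 3 in 8 rests on few genes and is not read here as a result about the whole list.

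**Figure D2:**
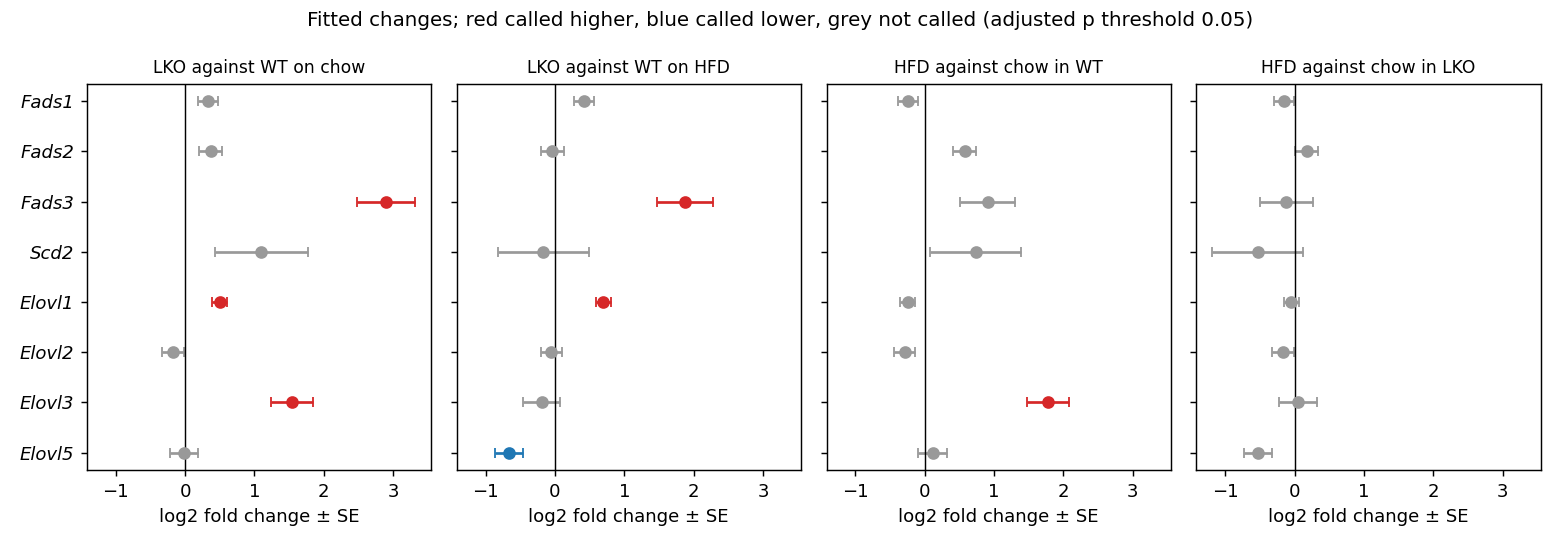
Fitted log2 fold change of each transcript with its SE (horizontal axis) in the 4 comparisons of groups, red where called higher, blue where called lower and grey where not called. The change of Fads3 in LKO, 2.90 on chow and 1.88 on HFD, is the largest of the 8 on either diet, and no transcript was called between diets within LKO.

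Fads3 showed the largest difference. Its level was 28.9, 23.7, 19.7 and 15.2 CPM in the WT chow libraries and 70.6, 84.5, 253 and 246 CPM in the LKO chow libraries. On HFD it was 27.8, 65.6, 32.2 and 38.6 CPM in WT and 167, 154, 137 and 144 CPM in LKO. On each diet the lowest LKO library exceeded the highest WT library, and LKO chow divided into a lower pair and a higher pair, with the 4 LKO HFD libraries between them. Fads3 rose in LKO by a log2 fold change of 2.90 on chow (adjusted p = 0.000193, SE 0.419, 7.47-fold) and of 1.88 on HFD (adjusted p = 0.00464, SE 0.401, 3.67-fold). Libraries of the groups did not overlap for 21.4% of all genes on chow and 27.8% on HFD. The size of the chow difference rests on the higher pair. Leaving out libraries 3 and 4 gave 1.83, leaving out libraries 1 and 2 gave 3.51, and both were called (adjusted p = 0.00104 and 3.84e-06). The diet itself gave no call for Fads3, with a log2 fold change of 0.91 in WT (adjusted p = 0.295, SE 0.400) and -0.12 in LKO (adjusted p = 0.902, SE 0.385). The value in LKO was -0.73 without LKO chow libraries 1 and 2 (adjusted p = 0.0916) and 0.96 without libraries 3 and 4 (adjusted p = 0.200).

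Among the LKO chow libraries, endothelial, Kupffer cell, macrophage and stellate cell markers ran opposite to Fads3. Red blood cell genes and the fat cell marker Car3 ran with Fads3. The summed level of 10 endothelial markers was 591 and 496 CPM in LKO chow libraries 1 and 2, which were lower in Fads3, and 256 and 248 CPM in libraries 3 and 4, which were higher. Over the WT chow libraries the same sum ran from 235 to 527 CPM. In the same order of the LKO chow libraries, 9 Kupffer cell markers summed to 615, 551, 159 and 321 CPM, beside 294 to 633 CPM in WT chow. The 12 macrophage and monocyte markers summed to 308, 249, 121 and 179 CPM, beside 149 to 316 CPM in WT chow. The 10 stellate cell and fibroblast markers summed to 419, 365, 302 and 271 CPM, beside 230 to 393 CPM in WT chow. Car3 stood at 1467, 1214, 2055 and 2133 CPM, beside 1178 to 2218 CPM in WT chow. The summed level of 5 red blood cell genes was 258 and 348 CPM in LKO chow libraries 1 and 2 and 1137 and 637 CPM in libraries 3 and 4, but it was 444 to 983 CPM in WT chow, where Fads3 was lowest. On HFD it was 332 to 420 CPM in the WT libraries and 363 to 604 CPM in those of LKO, and the part of these cell types in the Fads3 values was not tested.

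Markers of other cell types were called between genotypes in small numbers (edgeR). Among 12 macrophage and monocyte markers Cd9 (0.69, adjusted p = 0.00718) and Ly6c2 (0.63, adjusted p = 0.0394) rose on chow. Among 8 B and plasma cell markers Iglc2 (-1.46, adjusted p = 0.0146) and Jchain (-1.79, adjusted p = 0.0204) fell on chow. None of either list was called on HFD, where DESeq2 called 2 and 0 and limma voom 2 and 1. Of the 5 red blood cell genes Alas2 rose on both diets (0.75, adjusted p = 0.00470 on chow and 0.63, adjusted p = 0.0169 on HFD). Of 8 hepatocyte markers 3 fell on chow, and 1 rose and 2 fell on HFD. Of the 9 Kupffer cell, 10 endothelial and 10 stellate cell and fibroblast markers tested, none was called between genotypes on either diet. At an unadjusted p below 0.05, 2 of the 10 stellate cell and fibroblast markers passed on chow and 0 on HFD, and 0 of the Kupffer cell and endothelial markers did. DESeq2 called 0 of these 3 lists, and limma voom called 1 stellate cell and fibroblast marker on each diet. All 10 endothelial markers had negative log2 fold changes on HFD (median -0.33), and 9 had positive ones on chow (median 0.15). Of 6 bile duct cell markers, edgeR called 0 on either diet. All 6 were negative on HFD (median -0.77, 3 at an unadjusted p below 0.05), and 3 were positive on chow (median 0.11, 1 at that p). The part of these cells in the 8 transcripts was not tested.

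The gene (ENSMUSG00000024664.5) lies on the plus strand of chromosome 19 from 10041569 to 10060110 (GRCm38/mm10, GENCODE M21). It is next to Fads2 on the minus strand (10062765 to 10101746), and Fads1 follows on the plus strand (10182888 to 10196877). Of 26 genes annotated as starting within 250 kb of the Fads3 start, 9 were tested, and Fads3 was the only one called between genotypes on either diet. The median log2 fold change of these 9, Fads3 included, was 0.08 on chow and -0.04 on HFD. At an unadjusted p below 0.05 (edgeR), Fads1 (0.33) and Fads2 (0.37) also passed on chow. Fads1 (0.42) and Incenp (-0.56) passed on HFD. Fth1, the ferritin heavy chain, changed by 0.15 on chow (adjusted p = 0.286, SE 0.0937), and Myrf, a transcription factor, by -0.13 (adjusted p = 0.425, SE 0.110).

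**Figure D3:**
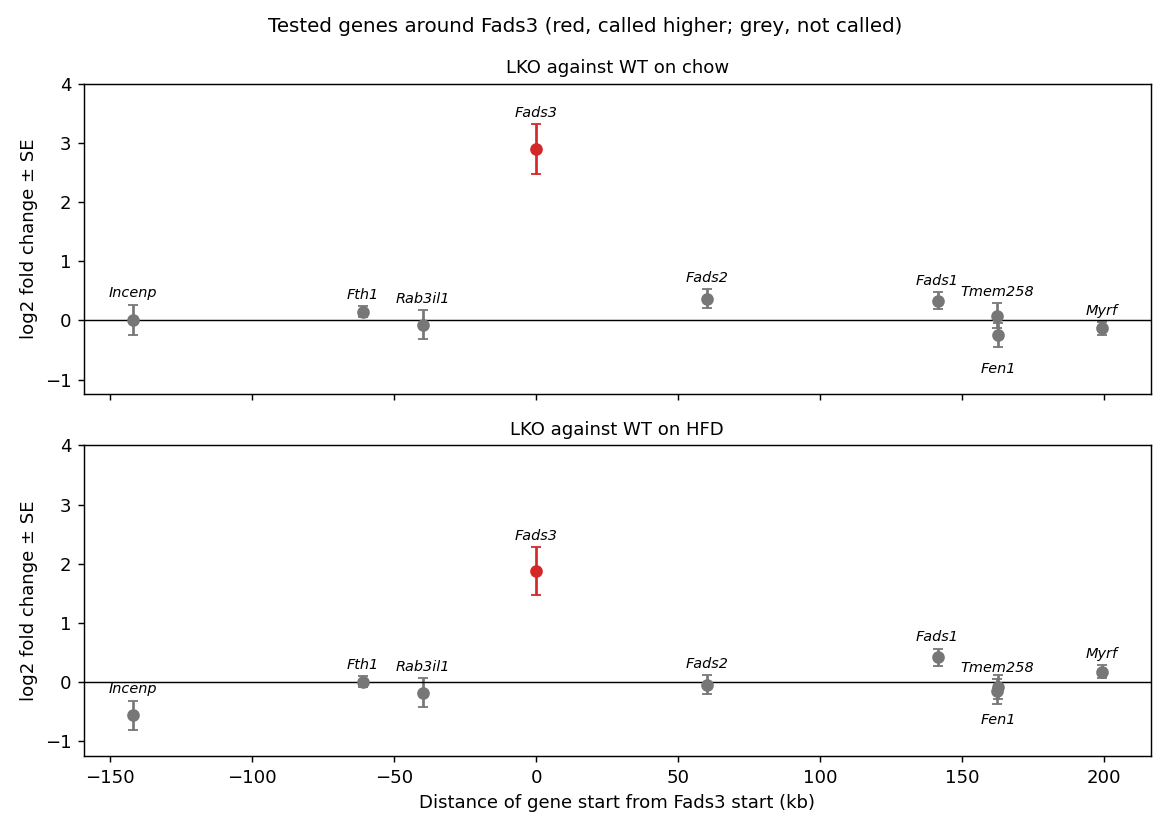
Fitted log2 fold change with SE (vertical axis) of the 9 tested genes around Fads3, against the distance of each gene's annotated start from that of Fads3 in kb (horizontal axis), on chow (top) and on HFD (bottom). Fads3 stands at 2.90 and 1.88, and its tested neighbours were not called.

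Fads3 and Elovl1 were the transcripts called in LKO on both diets, and RefSeq start windows were at hand for both. They are shown with that of Elovl5, which was lower in LKO on HFD. Each window runs from 250 bases before to 50 bases after the start (RefSeq, GRCm38.p6), all 3 on the plus strand, and capitals mark the CCAAT box or, on the other strand, its complement ATTGG. Fads3 is chr19:10041298-10041597, Elovl1 is chr4:118427843-118428142 and Elovl5 is chr9:77917115-77917414.
Fads3: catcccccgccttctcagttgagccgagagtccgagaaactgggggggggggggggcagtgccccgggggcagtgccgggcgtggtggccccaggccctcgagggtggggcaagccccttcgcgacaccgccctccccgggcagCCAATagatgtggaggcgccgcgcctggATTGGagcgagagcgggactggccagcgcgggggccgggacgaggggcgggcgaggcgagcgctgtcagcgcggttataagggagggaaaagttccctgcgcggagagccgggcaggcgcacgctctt
Elovl1: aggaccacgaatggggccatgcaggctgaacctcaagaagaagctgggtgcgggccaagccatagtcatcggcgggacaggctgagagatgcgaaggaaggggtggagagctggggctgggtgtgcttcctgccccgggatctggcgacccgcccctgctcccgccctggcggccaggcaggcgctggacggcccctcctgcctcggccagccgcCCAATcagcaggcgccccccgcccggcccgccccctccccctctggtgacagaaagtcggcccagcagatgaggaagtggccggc
Elovl5: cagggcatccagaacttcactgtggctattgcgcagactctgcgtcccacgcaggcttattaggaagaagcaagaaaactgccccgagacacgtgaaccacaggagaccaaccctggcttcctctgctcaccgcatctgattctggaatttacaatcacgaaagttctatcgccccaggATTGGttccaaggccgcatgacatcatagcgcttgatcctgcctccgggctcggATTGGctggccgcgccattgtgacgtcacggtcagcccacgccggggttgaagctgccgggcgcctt
A CCAAT box, the motif bound by NF-Y, was found on either strand 2 times in the Fads3 window, 1 time in this Elovl1 window and 2 times in the Elovl5 window. It was present in 37.4% of 32851 windows of the same length. The E-box CACGTG was found 1 time, in Elovl5, and is in 7.15% of windows. The sterol response element TCACNCCAC (1.24% of windows) and the DR4 element bound by liver X receptors (AGGTCA repeated after 4 bases, 0.0152%) were searched on both strands and are not in these windows. The motifs do not overlap one another in the windows shown. GC content was 73.0% for Fads3, 70.7% for Elovl1 and 57.7% for Elovl5, with a median of 52.7% over all windows. In all, 7 windows were at hand for 5 of the 8 genes. The other Elovl1 window, 2 windows of Elovl2 and 1 of Fads2 held none of the 4 motifs.

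Elovl1, which makes very-long-chain acyl-CoAs used for sphingolipids, rose by a smaller amount but with little spread. Its level was 37.1, 34.4, 37.0 and 40.7 CPM in WT and 51.0, 50.8, 57.0 and 52.0 CPM in LKO, both on chow. On HFD it was 25.7, 38.7, 31.7 and 29.7 CPM in WT and 50.1, 45.6, 57.5 and 50.5 CPM in LKO. All 8 LKO libraries lay above all 8 WT libraries. Within a diet, the genotypes did not overlap for 21.4% of all genes on chow and 27.8% on HFD. The share over both diets at once was not counted. The log2 fold change of Elovl1 was 0.50 on chow (adjusted p = 0.00265, SE 0.108) and 0.69 on HFD (adjusted p = 0.000211, SE 0.108). The difference between the diets in this change was not called (0.19, adjusted p = 0.702, SE 0.153). Within a genotype the diet gave -0.24 in WT (adjusted p = 0.288, SE 0.109) and -0.05 in LKO (adjusted p = 0.849, SE 0.107). The gene lies on chromosome 4 from 118428093 to 118432953 on the plus strand and overlaps Cdc20 on the minus strand. The sources used here do not say whether counting used strand, so reads from the overlap cannot be assigned. Cdc20 held 14 to 121 counts per library and Elovl1 held 536 to 1397. The part of the overlap in the Elovl1 values was not tested.

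Elovl3, the elongase of very-long-chain saturated and monounsaturated fatty acids in skin, brown fat and liver, was low in WT chow and higher in each of the other groups. Its level was 1.38, 1.38, 0.915 and 1.21 CPM in WT chow and 2.42, 4.36, 4.42 and 3.05 CPM in LKO chow. On HFD it was 6.44, 4.38, 2.42 and 3.66 CPM in WT and 2.66, 3.78, 3.33 and 4.91 CPM in LKO. The WT chow libraries lay below all 12 others, which overlapped one another. Of all genes, 21.4% did not overlap between genotypes on chow and 9.51% did not between diets in WT. Elovl3 rose by 1.54 on the log2 scale in LKO on chow (adjusted p = 0.00122, SE 0.301) and by 1.77 with HFD in WT (adjusted p = 0.00381, SE 0.300), and these comparisons share the WT chow libraries. The second of these was the only call among the 8 transcripts between diets in WT, where 2.04% of all genes were called. Between genotypes on HFD the log2 fold change was -0.19 (adjusted p = 0.697, SE 0.273), and with HFD in LKO it was 0.04 (adjusted p = 0.954, SE 0.275). The test of whether the genotype difference depends on diet gave -1.73 (SE 0.406), with an unadjusted p of 0.000506 and an adjusted p of 0.260 in edgeR. That interaction was called by DESeq2 (-1.72, adjusted p = 0.0244) and without LKO chow libraries 1 and 2 (-1.79, adjusted p = 0.0196), and in none of the other 24 alternatives, whose adjusted p reached up to 0.584. The transcript was scarce, with 17 to 33 counts per library in WT chow and 52 to 134 in the other groups. Pitx3, which overlaps Elovl3 on chromosome 19 on the other strand, held 0 to 5 counts.

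Hepatic Elovl3 is known to be higher in male than in female mice and to follow the time of day, so lists of sex-biased and clock genes are set beside it. Of 10 genes that are higher in male liver, 7 rose in LKO on chow and 7 in LKO on HFD, where Elovl3 was not called. With HFD, 3 of the 10 rose in WT and 0 were called in LKO (6 at an unadjusted p below 0.05, and DESeq2 called 0). Cyp2d9, a male-biased cytochrome P450, rose by 3.34 in LKO on chow (adjusted p = 6.16e-08, SE 0.237) and by 1.45 with HFD in WT (adjusted p = 0.00256, SE 0.227). Of 12 genes that are higher in female liver, 12 fell in LKO on chow. In LKO on HFD 6 fell (10 at an unadjusted p below 0.05, and DESeq2 called 9). With HFD in WT 2 fell (8 at that p, and DESeq2 called 5). With HFD in LKO 1 fell (2 at that p, and DESeq2 called 2, of which 1 rose). Of 17 clock genes, 3 fell in LKO on chow, among them Hlf (-0.69, adjusted p = 0.000227, SE 0.111), and Hlf alone fell in LKO on HFD. With HFD, 2 rose and 3 fell in LKO (13 at an unadjusted p below 0.05; DESeq2 called 10, limma voom 8), where Elovl3 was not called, and 1 fell in WT, Arntl (-1.59, adjusted p = 0.0458, SE 0.381). The Arntl call in WT was lost in 11 of 27 alternatives. The part of either list in the Elovl3 values was not tested.

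Of Elovl5 and Elovl2, the elongases of polyunsaturated fatty acids, only Elovl5 was called, in LKO on HFD, and they were not tested against each other. Elovl5 stood at 1065, 1267, 1142 and 826 CPM in WT HFD and at 480.4, 583, 977 and 683 CPM in LKO HFD, so the highest LKO library lay within the WT range. It fell in LKO on HFD by 0.66 on the log2 scale (adjusted p = 0.0324, SE 0.204). The call was lost when only the groups compared were fitted (adjusted p = 0.0578) and when any 1 of 6 of the 8 HFD libraries was left out (WT HFD 1, 2 or 3, or LKO HFD 1, 2 or 4), with adjusted p from 0.0599 to 0.106 and log2 fold changes from -0.66 to -0.52. On chow Elovl5 stood at 734, 1265, 1134 and 849 CPM in the WT libraries and at 881, 913, 1081 and 1061 CPM in the LKO libraries, and the log2 fold change was -0.02 (adjusted p = 0.968, SE 0.203). The LKO chow libraries lay within the WT chow range. The difference between these changes was -0.64 (adjusted p = 0.550, SE 0.287) and was not called.

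Elovl2, which extends the longer polyunsaturated fatty acids on the way to docosahexaenoic acid, was called in no comparison. It stood at 625, 877, 875 and 661 CPM in WT chow and 565, 913, 554 and 657 CPM in LKO chow. On HFD it stood at 701, 580.1, 677 and 525 CPM in the WT libraries and 555, 603, 627 and 611 CPM in LKO. The LKO HFD libraries were the closest together, and the groups overlapped in every comparison. Its log2 fold change was -0.18 in LKO on chow (adjusted p = 0.455, SE 0.155), -0.05 in LKO on HFD (adjusted p = 0.865, SE 0.155) and -0.29 with HFD in WT (adjusted p = 0.397, SE 0.155). The chow value was -0.33 without LKO chow libraries 1 and 2 and -0.039 without libraries 3 and 4, with no call. The ratio of Elovl5 to Elovl2 counts within a library ran from 1.18 to 1.44 in WT chow, 1.0 to 1.95 in LKO chow, 1.52 to 2.18 in WT HFD and 0.866 to 1.56 in LKO HFD. Both genes have the same count, 23675, in LKO chow library 2. That library held 7 tied values among its 672 genes with at least 5000 counts, and the other libraries held 0 to 8.

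Fads1 and Fads2, the front-end desaturases of the polyunsaturated pathway, were higher in LKO chow on average without passing the threshold. Fads1 stood at 724, 838, 906 and 849.9 CPM in WT chow and at 927, 1044, 1137 and 1071 CPM in LKO chow. It did not overlap between these groups, as was the case for 21.4% of all genes. On HFD it stood at 542, 849, 788 and 617 CPM in the WT libraries and at 783, 876, 1187 and 905 CPM in those of LKO, where 1 LKO library lay below 2 of the WT libraries. Its log2 fold change was 0.33 on chow (adjusted p = 0.106, SE 0.145) and 0.42 on HFD (adjusted p = 0.0518, SE 0.145). The HFD value passed the threshold in 6 of 27 alternatives, DESeq2 (adjusted p = 0.0323) and limma voom (adjusted p = 0.0189) among them. Fads2 stood at 691, 784, 795 and 760.3 CPM in WT chow and at 691, 979, 1137 and 1101 CPM in LKO chow, where 1 of the 4 LKO libraries was as low as the lowest WT library. Its log2 fold change was 0.37 (adjusted p = 0.117, SE 0.165), and it was called without LKO chow library 1 (0.50, adjusted p = 0.0223) and without libraries 1 and 2 (0.56, adjusted p = 0.0156). Without libraries 3 and 4 it was 0.14 (adjusted p = 0.661), so the size of the difference depends on which pair is used.

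On HFD Fads2 stood at 926, 1363, 1203 and 1030.5 CPM in WT and at 874, 1029, 1427 and 1073 CPM in LKO. The genotypes overlapped, with a log2 fold change of -0.04 (adjusted p = 0.909, SE 0.164). All 4 WT HFD libraries lay above all 4 WT chow libraries. These groups did not overlap, in either direction, for 9.51% of all genes, with 643 genes higher and 730 lower on HFD. The log2 fold change with HFD in WT was 0.58 (adjusted p = 0.0802, SE 0.165) and passed the threshold in 6 of 27 alternatives, among them DESeq2 (adjusted p = 0.0251) and limma voom (adjusted p = 0.0498). Fads1 went the other way with HFD in WT without a call, at -0.25 (adjusted p = 0.456, SE 0.145).

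The balance of the neighbouring desaturase genes within a library separated the HFD groups from each other and from chow. The ratio of Fads2 to Fads1 counts was 0.955, 0.937, 0.877 and 0.895 in WT chow and 0.745, 0.938, 1.0 and 1.03 in LKO chow. It was 1.71, 1.61, 1.53 and 1.67 in WT HFD and 1.12, 1.18, 1.20 and 1.19 in LKO HFD. The WT HFD libraries were highest and the LKO HFD libraries lay between them and all chow libraries, with no overlap, while the chow groups overlapped. This ratio, picked after the values had been seen, is given without a test. Ratios to Fads1 that did not overlap were found for 30.9% of all genes between genotypes on chow, 27.2% between genotypes on HFD, 9.4% between diets in WT and 4.58% between diets in LKO.

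**Figure D4:**
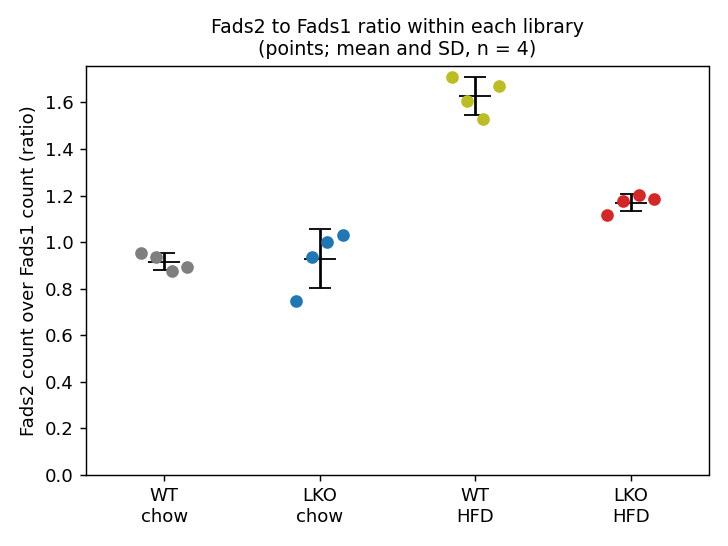
Ratio of Fads2 to Fads1 counts in each library (vertical axis, from 0), as points by group, with the group mean and SD (n = 4). The ratio is 1.53 to 1.71 in WT HFD, 1.12 to 1.20 in LKO HFD and at most 1.03 in the chow libraries.

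Scd2 scattered too widely for a difference to be detected. It stood at 8.34, 19.4, 65.3 and 49.6 CPM in WT chow and 122, 34.7, 99.4 and 49.2 CPM in LKO chow. On HFD it stood at 43.0, 137, 30.3 and 26.2 CPM in the WT libraries and 30.7, 54.6, 66.1 and 59.1 CPM in LKO. All groups overlapped, and within WT chow alone the highest library was 7.83 times the lowest. The log2 fold change was 1.10 in LKO on chow (adjusted p = 0.263, SE 0.664) and -0.17 in LKO on HFD (adjusted p = 0.901, SE 0.655). Scd2 is also expressed in fat, and the fat cell markers Adipoq and Plin1 varied between libraries. Adipoq had 47 counts in LKO chow library 3, 31 in WT HFD library 4, 8 in WT chow library 3 and 0 to 4 in the other 13, and Plin1 had 63.9, 57.2 and 26.1 in these 3 libraries and 0 to 14.4 in the others. Of these 3 libraries, WT chow library 3 was the highest of its group in Scd2, LKO chow library 3 the second highest and WT HFD library 4 the lowest. In LKO chow library 1 and WT HFD library 2, the highest of their groups in Scd2, Adipoq had 0 and 3 counts. Other fat cell markers did not all follow Adipoq. Lep did, with 6, 5 and 3 counts in LKO chow library 3, WT HFD library 4 and WT chow library 3. Cfd was highest in LKO HFD, at 59 to 204 counts. Cidea had 37 counts in WT HFD library 4, 16 in LKO HFD library 3 and 0 in LKO chow library 3. Car3, the only listed one tested, stood at 1178 to 2844 CPM over the 16 libraries. The part of fat cells in the Scd2 values was not tested. Its close paralog Scd1 had 100203 to 882180 counts per library against 163 to 2791 for Scd2. How reads shared by both were split is not given in the sources used here, so the level of Scd2 is uncertain.

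No transcript was called between diets in LKO, where 2.22% of all genes were called, and none in the interaction, where 0.0208% were. At an unadjusted p below 0.05, 1 of the 8 passed between diets in LKO, Elovl5 (-0.53, adjusted p = 0.178, SE 0.204), and 2 passed in the interaction, Elovl3 and Elovl5. DESeq2 called 0 and 1 of the 8 in these comparisons, and limma voom called 1 and 0. Fads3 gave an interaction of -1.02 (adjusted p = 0.605, SE 0.555), which was called only without LKO chow libraries 1 and 2 (-1.63, adjusted p = 0.0217) and was 0.051 without libraries 3 and 4. The value thus depends on which pair of LKO chow libraries is used.

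The other enzymes of elongation and desaturation gave no calls between genotypes. Of the 6 other elongases and desaturases tested, 0 were called on either diet by edgeR. At an unadjusted p below 0.05, 1 passed on chow and 1 on HFD. DESeq2 called 1 and 0, and limma voom 0 and 1. In edgeR their log2 fold changes ran from -1.01 to 0.17 on chow (lowest adjusted p = 0.0970). On HFD they ran from -1.42 to 0.62 (lowest adjusted p = 0.0894). Scd1, the main stearoyl-CoA desaturase of adult liver, had a log2 fold change of -1.01 on chow (adjusted p = 0.0970, SE 0.421) and -0.68 on HFD (adjusted p = 0.298, SE 0.419). Elovl6, the elongase of palmitate, had -0.64 on chow (adjusted p = 0.462, SE 0.568). Of the 6 genes of the other steps of the elongation cycle, the reductase, dehydratase and enoyl reductase steps, 0 were called on either diet (1 and 0 at an unadjusted p below 0.05; DESeq2 called 1 and 0, limma voom 0 and 0). The median log2 fold change of these 6 was -0.06 on chow and -0.06 on HFD.

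Of 6 listed genes of cytochrome b5 and its reductases, the reductase Cyb5r2 rose on both diets. It was a very low transcript, with 0.205 ± 0.115 CPM in the WT group and 0.899 ± 0.372 CPM in LKO on chow and 0.195 ± 0.124 and 1.29 ± 0.267 CPM on HFD (SD, n = 4 each), or 1 to 32 counts per library. The log2 fold change was 2.11 on chow (adjusted p = 0.00309, SE 0.466) and 2.70 on HFD (adjusted p = 0.000405, SE 0.453). Cyb5b, the mitochondrial form of cytochrome b5, fell on chow (-0.53, adjusted p = 0.0129, SE 0.146), but leaving out libraries 3 and 4 of LKO chow gave -0.33 and no call (adjusted p = 0.177). The other 4 genes were not called between genotypes by edgeR or DESeq2, and limma voom also called Cyb5r4 on chow.

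Genes upstream of elongation, which make palmitate, were lower on average in LKO. All 8 had negative log2 fold changes on both diets (median -1.05 on chow and -0.91 on HFD), of which 2 were called on chow and 1 on HFD. Me1, the malic enzyme that supplies NADPH, fell by 1.48 on chow (adjusted p = 0.0154, SE 0.403) and by 1.24 on HFD (adjusted p = 0.0458, SE 0.401). Pklr, liver pyruvate kinase, fell on chow (-0.88, adjusted p = 0.0177, SE 0.253). The Me1 call on HFD was lost in 14 of 27 alternatives (adjusted p up to 0.162), that on chow in 3, either LKO chow pair left out among them (adjusted p = 0.0757 and 0.101), and the Pklr call in 2, libraries 3 and 4 left out being 1 of them (adjusted p = 0.0980). Of 13 transcriptional regulators of desaturases, 1 rose and 2 fell on chow and 0 were called on HFD (3 at an unadjusted p below 0.05; DESeq2 called 1, limma voom 3). Insig2, which retains the SREBP escort in the endoplasmic reticulum, rose on chow (0.69, adjusted p = 0.0214, SE 0.205), and its relative Insig1 fell (-0.92, adjusted p = 0.0337, SE 0.295), as did the nuclear receptor Hnf4a (-0.26, adjusted p = 0.0417, SE 0.0903). Of 27 alternatives, the call was lost in 6 for Insig2 (adjusted p up to 0.0921), 10 for Insig1 (up to 0.151) and 14 for Hnf4a (up to 0.333). Without LKO chow libraries 3 and 4 Hnf4a was at -0.15. With HFD in WT, 2 of the 13 rose and 3 fell. Srebf1, the sterol-response factor of fatty acid synthesis, rose by 1.0 (adjusted p = 0.0443, SE 0.244), and Srebf2, that of cholesterol synthesis, fell by 0.79 (adjusted p = 0.000427, SE 0.105). In LKO, Srebf1 rose with HFD (1.01, adjusted p = 0.0397, SE 0.244) and Srebf2 fell (-0.55, adjusted p = 0.0105, SE 0.105). The Srebf1 call was lost in 13 of 27 alternatives in WT (adjusted p up to 0.122) and in 12 in LKO (up to 0.187), and the Srebf2 call in none in either.

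Genes that use or shorten the products were called in small numbers. Of 9 acyl-CoA synthetases, 1 fell on chow, Slc27a5 (-0.29, adjusted p = 0.0466, SE 0.101), and 1 rose on HFD, Acsl4, which prefers polyunsaturated fatty acids (0.63, adjusted p = 0.0154, SE 0.171). The Slc27a5 call was lost in 15 of 27 alternatives (adjusted p up to 0.309) and the Acsl4 call in none. Of 9 genes of phospholipid acyl exchange and transport, Agpat3 fell on both diets (-0.62, adjusted p = 0.00202, SE 0.129 on chow and -0.61, adjusted p = 0.00288, SE 0.129 on HFD). Of 11 genes of peroxisomal chain shortening, 2 rose and 2 fell on chow and 1 rose and 1 fell on HFD. Acot8, a peroxisomal thioesterase, rose by 0.57 on chow (adjusted p = 0.00272, SE 0.123) and by 0.49 on HFD (adjusted p = 0.00979, SE 0.123), and Abcd3, a peroxisomal transporter, fell on chow (-0.47, adjusted p = 0.00192, SE 0.0966). Of 6 genes of ceramide formation, the pathway that uses Elovl1 products and holds the Fads3 substrate, 2 fell on chow, Cers6 (-0.63, adjusted p = 0.0226, SE 0.189) and Cers2 (-0.24, adjusted p = 0.0470, SE 0.0857), and 1 fell on HFD, Sptlc1 (-0.33, adjusted p = 0.0388, SE 0.107). Of 27 alternatives, the Cers2 call was lost in 19 (adjusted p up to 0.148), the Sptlc1 call in 7 (up to 0.137) and the Cers6 call in 6. Cers6 was at -1.03 without LKO chow libraries 1 and 2 and at -0.31 without libraries 3 and 4 (adjusted p = 0.266).

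**Figure D5:**
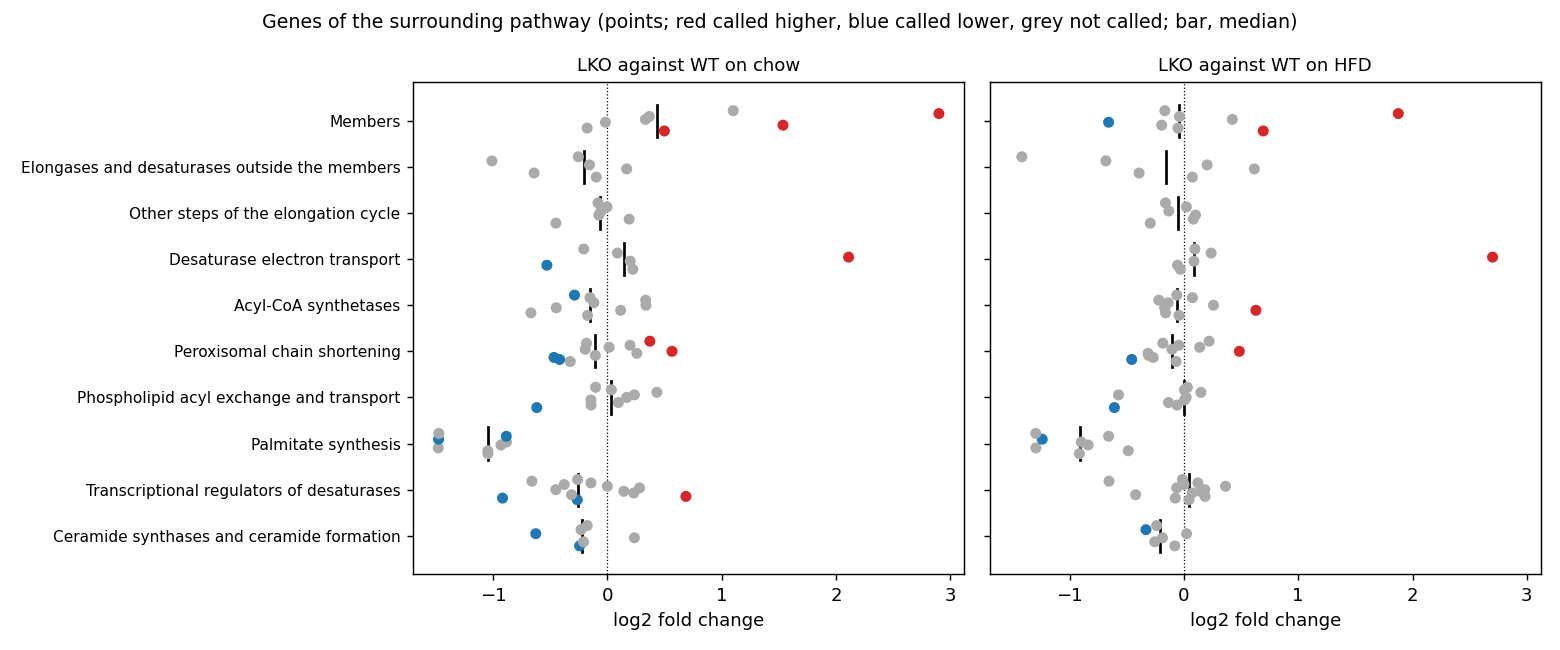
Fitted log2 fold change in LKO (horizontal axis) of each tested gene, by list, on chow (left) and on HFD (right), red where called higher, blue where called lower and grey where not called, with a bar at the median of each list. Fads3 and Cyb5r2 lie farthest to the right on either diet, and all 8 genes of palmitate synthesis lie below 0.

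The transcripts also differed in which genes they resembled. Over the 16 libraries the log2 CPM of Fads3 was most like that of Haus1, Pigp and Ifitm3 (Pearson r 0.97, 0.96 and 0.96), and that of Elovl1 most like Atp10b, Ccl9 and Espnl (r 0.97, 0.96 and 0.96). Elovl3 was most like Lmo2, Plin4 and Scp2 (r 0.89, 0.86 and 0.85). These values include the group differences and are the highest of all tested genes, so they are descriptions only. With each group's mean removed, the 16 libraries of Fads1 were most like H2-Q1, Fads2 and Sqle (r 0.91, 0.89 and 0.88), and those of Scd2 most like Gstm4, Insig1 and Pnpla3 (r 0.95, 0.92 and 0.92). Among the 8 transcripts themselves, Fads1 and Fads2 had r 0.89 with group means removed, Elovl1 and Fads1 0.78, and Elovl5 and Fads1 0.75, while Fads3 and Scd2 had -0.03. All points share their libraries and the scaling of each library.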

How the data were processed

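Poly(A) RNA of 16 mouse liver libraries was sequenced as paired reads of 150 bases, per the labels' protocols. The submitters' processing notes name Bowtie2, DESeq2 and mm10 without versions or roles, and the counting tool, its use of strand and the annotation are not given in the sources used here. The authors deposited expected counts per gene symbol, not normalised, of which 51.05% were whole (tolerance 1e-06). They were rounded for the models. A second deposited table of 35712 genes holds the same estimated counts, with its 8 chow columns moved by 1 row. No member value differed after alignment. Genes at 0 in any library are absent from the counts table, which holds 99.93% of the counts.

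Group differences were fitted with edgeR 4.0.16 (R 4.3.3): TMM, filterByExpr, robust quasi-likelihood fits over all 16 libraries with 1 mean per group, 2-sided, with Benjamini-Hochberg adjustment over 14434 genes and calls at 0.05. The SE is the log2 fold change divided by the root of F. Alternatives were DESeq2 1.42.0, limma 3.58.1 voom with quality weights, other scalings and filters, fewer groups, a replicate block, libraries left out and the second table. The code was tested on simulated data. Correlations use log2 CPM with a prior count of 2. Depth limits the rarest transcripts, and errors cover these libraries only.

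Replicate numbers were checked for pairing: deviations from the group means of libraries sharing a number correlated above 0.1 in 5 of 24 pairs (median -0.0178), so no pairing was assumed. Named genes are the 8 members, Arglu1, up to 4 genes with the lowest p of each list, and for likeness the 3 most correlated genes. Others, such as Adipoq, Plin1 and the genes around Fads3, were chosen after values were seen. The members and gene lists were chosen with earlier results of these data known. Coordinates are from GENCODE M21 (GRCm38) and start windows from RefSeq (GRCm38.p6).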

Additional observations from a re-analysis of the deposited data

Results flagged for a closer look

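Scd2 in WT HFD library 2 stood at 137 CPM, and the other 3 WT HFD libraries at 43.0, 30.3 and 26.2 CPM. Its gap to the nearest of these, divided by the range of the group, exceeded Dixon's critical value for 4 libraries. It was the only such value in 32 tests of the 8 transcripts in 4 groups, and chance alone gives about 1 in 20. Without this library the log2 fold change of Scd2 in LKO on HFD was 0.67 in place of -0.17, and with HFD in WT it was -0.10 in place of 0.73, with no call in either case. The fat cell marker Adipoq had 3 counts in that library and 0, 0 and 31 in WT HFD libraries 1, 3 and 4, and over all 16 libraries it was highest in LKO chow library 3 (47 counts), where Scd2 was second in its group.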

How the results depend on the processing

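Over 40 log2 fold changes (the 8 transcripts in 5 comparisons) and 1072 refits, 1011 kept their direction and side of the threshold, 7 lost a call, 20 gained one and 34 changed sign without being called. Fads3 and Elovl1 in LKO on both diets, Elovl3 in LKO on chow and Elovl3 with HFD in WT kept their direction and call in all 27 alternatives. The number called was 3 or 4 of 8 in LKO on chow and 2 to 4 on HFD in every alternative. With HFD in WT it was 1 and became 2 with DESeq2, limma voom, only the groups compared, the replicate block and without LKO chow libraries 1 and 2, and 1 to 2 with a library left out. With HFD in LKO it was 0 and became 1 with limma voom, and 0 to 1 with a library left out. In the interaction it was 0 and became 1 with DESeq2 and 2 without LKO chow libraries 1 and 2. Over all genes the number called ran from 2152 to 5036 in LKO on chow (3565 as reported), 1977 to 4519 in LKO on HFD (2583), 155 to 706 with HFD in WT (294), 111 to 2768 with HFD in LKO (320) and 0 to 1264 in the interaction (3). The causes were not tested.

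With the replicate number as a block, Fads1 was called in LKO on chow (adjusted p = 0.0380) and on HFD (adjusted p = 0.0142) and Fads2 with HFD in WT (adjusted p = 0.0295), and Elovl5 in LKO on chow was 0.010, but libraries share only a number. Sign changes, none called, were these. Elovl5 in LKO on chow was -0.02 as reported, 0.12 with limma voom, 0.033 with upper-quartile scaling, 0.000954 with a mean count of at least 50, and 0.10 without LKO chow libraries 1 and 2. In LKO on HFD limma voom gave 0.029 for Elovl3 and 0.37 for Scd2. With HFD in LKO and without LKO chow libraries 1 and 2, Elovl3 was -0.021 and Fads2 -0.021. With HFD in LKO and without libraries 3 and 4, Elovl1 was 0.000386, Fads3 0.96 and Arglu1 -0.038. In the interaction without libraries 3 and 4, Elovl2 was -0.013, Fads3 0.051 and Arglu1 -0.073, and Arglu1 was -0.013 with upper-quartile scaling. With single libraries left out, values ran from -0.14 to 0.12 for Elovl5 in LKO on chow. In LKO on HFD they ran from -0.12 to 0.012 for Elovl2, -0.39 to 0.083 for Elovl3, -0.19 to 0.063 for Fads2 and -0.41 to 0.67 for Scd2. With HFD in WT they ran from -0.0096 to 0.24 for Elovl5 and -0.10 to 1.20 for Scd2. With HFD in LKO they ran from -0.11 to 0.000426 for Elovl1, -0.25 to 0.017 for Elovl2, -0.13 to 0.17 for Elovl3 and -0.37 to 0.17 for Fads3. In the interaction they ran from -0.043 to 0.20 for Fads1 and -0.013 to 0.11 for Arglu1. Scaling moved the median log2 fold change of all genes by less than 0.1.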
